A study of Mus musculus with 3 samples.

Results

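Hox genes encode homeodomain transcription factors and were described here in cultured mouse cells labelled as embryonic stem cells (mESCs). They were chosen by name: every array probe whose transcript accession maps to a symbol of the form Hoxa, Hoxb, Hoxc or Hoxd with a number from 1 to 13. The rule found 39 genes with 43 probes, of 20659 named genes and 39429 probes on the array, and every Hox symbol of the RefSeq gene table had a probe. The cells were compared as gp130 KO, LIFR KO and wildtype, with 1 single-colour Agilent array of total RNA in each group. gp130, encoded by Il6st, and LIFR together form the receptor for leukaemia inhibitory factor (LIF), the cytokine that activates STAT3 and is added to keep mouse embryonic stem cells undifferentiated. The labels describe the culture as standard in all 3 groups. The labels name no strain, clone, passage or method of knockout.

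Mammalian Hox genes lie in 4 clusters, and genes at like positions in different clusters form paralogue groups numbered 1 to 13. In the embryo, low-numbered genes are switched on early and towards the head, and high-numbered genes later and towards the tail. In pluripotent cells the clusters are held under repressive Polycomb chromatin, retinoic acid is a classic inducer of the low-numbered genes, and HOX proteins bind DNA together with TALE homeodomain partners such as PBX and MEIS.

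Each value below is a background-subtracted signal in scanner units with no further scaling, and ratios were taken on the log2 scale after each array was divided by its 75th percentile (652 for gp130 KO, 750 for LIFR KO and 664 for wildtype). A probe was detected where the scanner software marked it well above background. With 1 array per group there was no replicate spread and no test. A ratio of at least 2-fold is a description of size, and the only error is the scanner's own estimate for each spot, which leaves out culture, RNA and labelling. In bulk RNA, fewer cells that express a gene and less RNA per cell cannot be told apart. Of all probes, 65.5% were well above background on the gp130 KO array, 58.3% on the LIFR KO array and 64.4% on the wildtype array. Stray signal, a local background over 2 times the array median, lay under 7 spots of the gp130 KO array, 249 of the LIFR KO array and 2 of the wildtype array.

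The label was checked against markers. For scale, 63.6% of all named genes were detected on all 3 arrays and 27.1% on none. Of 13 pluripotency markers 8 were detected on all 3 arrays, led by Klf4 and Lin28a, while Sox2, Zfp42, Dppa3, Fgf4 and Nr0b1 were detected on none. Pou5f1, among the 8, was dim, at 20.3 in gp130 KO, 22.7 in LIFR KO and 31.2 in wildtype. Esrrb had 49.0, 42.7 and 50.3, and Nanog 329, 217 and 316, in the same order. The summed signal of the detected pluripotency markers was 2659 in gp130 KO, 2572 in LIFR KO and 2578 in wildtype. Such sums are not scaled between arrays and follow the brightest genes. After scaling, the median log2 ratio over wildtype of this list was 0.04 in gp130 KO and -0.38 in LIFR KO. For all genes it was 0.03 and -0.03. All 10 epithelial markers were detected on all 3 arrays, led by Krt18 and Cdh1, with sums of 68237 in gp130 KO, 80947 in LIFR KO and 65389 in wildtype. Of 10 intestinal and endodermal markers 4 were detected on all 3 arrays, led by Gata4 and Lgals4 (sums 720, 609 and 691 in the same order of arrays), with Cdx2, Vil1 and Foxa2 on none. Of 9 fibroblast markers 5 were, led by Vim and Twist1 (85801, 90003 and 75065), with Pdgfrb on none. Of 6 neural markers 4 were, led by Nes and Map2 (5267, 5371 and 6269), with Pax6 on none. In LIFR KO Krt18 alone had 50636 of the epithelial sum and Vim 87779 of the fibroblast sum. Median log2 ratios over wildtype in gp130 KO and LIFR KO were 0.05 and 0.15 for the epithelial list. They were 0.03 and -0.30 for the intestinal and endodermal list, 0.27 and 0 for the fibroblast list and -0.13 and -0.19 for the neural list. The epithelial Cldn4 and the collagen Col1a1 were at least 2-fold higher in LIFR KO than in wildtype, by 2.20-fold and 3.23-fold. Of all genes compared 2.87% were. No marker of the 5 lists passed 2-fold in gp130 KO over wildtype. The part of these markers in the Hox values was not tested. Neither targeted transcript was 2-fold lower in its knockout: Lifr had a log2 ratio of -0.39 in LIFR KO over wildtype (scanner error 0.28) and Il6st -0.11 in gp130 KO over wildtype (scanner error 0.20). How these probes lie to any deleted stretch is unknown here, so they check the labels only weakly.

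Hoxa genes made up most of the Hox genes that were well above background on all 3 arrays. Of the 39 genes 13 (33.3%) were detected on all 3 arrays, where 63.6% of named genes were. A further 6 were detected on some arrays, and 20 (51.3%) stayed below detection throughout, where 27.1% of named genes did. In gp130 KO 17 Hox genes were detected (background 70.9% of named genes), in LIFR KO 15 (64.5%) and in wildtype 17 (69.7%). Hoxa supplied 9 of the 13, out of 11 Hoxa genes, with Hoxa2, Hoxa3, Hoxa5, Hoxa7 and Hoxa9 among them. Hoxa13 was detected in gp130 KO and wildtype, and Hoxa11 on no array.

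The other clusters were largely below detection. Hoxb3 and Hoxb9 of 10 Hoxb genes were detected on all 3 arrays, Hoxb6 in gp130 KO and wildtype, and Hoxb7 in LIFR KO alone. Of 9 Hoxc genes Hoxc12 was detected on all 3 arrays, Hoxc4 in LIFR KO and wildtype, Hoxc5 in gp130 KO and Hoxc6 in gp130 KO and wildtype. Of 9 Hoxd genes Hoxd4 was detected on all 3 arrays and the other 8 on none. A gene below detection may still be transcribed at a level these arrays do not separate from background. With the scanner's looser mark, positive and significant, 20 Hox genes were detected on all 3 arrays, 10 of them Hoxa, and 12 on none. Of all named genes, 76.8% had it on all 3 arrays and 10.6% on none. On at least 1 array that mark held for 11 Hoxa, 4 Hoxb, 6 Hoxc and 6 Hoxd genes.

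By position along the body axis, 4 of the 8 anterior genes (groups 1 to 3) were detected on all 3 arrays and the other 4 on none. Of the 15 central genes (groups 4 to 8) 5 were detected on all 3 arrays, 5 on some and 5 on none. Of the 16 posterior genes (groups 9 to 13) 4 were detected on all 3 arrays, Hoxa13 on some and 11 on none. Groups 8 and 11, with 3 genes each, had no member well above background, although Hoxd8 and Hoxd11 were among those that the looser mark took in. The 20 genes detected nowhere were Hoxa11, Hoxb1, Hoxb2, Hoxb4, Hoxb5, Hoxb8, Hoxb13, Hoxc8, Hoxc9, Hoxc10, Hoxc11, Hoxc13, Hoxd1, Hoxd3, Hoxd8, Hoxd9, Hoxd10, Hoxd11, Hoxd12 and Hoxd13. Their signals had a median of 2.41 in gp130 KO (range 2.01 to 10.5), 4.07 in LIFR KO (3.54 to 14.4) and 2.62 in wildtype (2.27 to 7.55). Hoxa11 and Hoxb1 are each printed as 10 spots, so their lack of detection rests on more spots than that of the other genes, which have 1 spot a probe.

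Of the genes measured on both arrays that have a promoter entry, the 3 farthest from wildtype in a knockout are shown, since STAT3 acts downstream of the LIF receptor. Each is the 250 bases before the start, 5′ to 3′ on the gene's strand, from RefSeq on GRCm38.p6, and capitals mark a match to the STAT motif TTCNNNGAA, searched on both strands.
Hoxa2 (chr6:52164832-52165081, minus strand): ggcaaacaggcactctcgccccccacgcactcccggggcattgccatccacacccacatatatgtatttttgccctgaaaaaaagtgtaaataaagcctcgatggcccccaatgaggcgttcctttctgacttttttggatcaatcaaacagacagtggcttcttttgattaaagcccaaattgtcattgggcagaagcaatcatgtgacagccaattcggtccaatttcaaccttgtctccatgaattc
Hoxa9 (chr6:52227371-52227620, minus strand): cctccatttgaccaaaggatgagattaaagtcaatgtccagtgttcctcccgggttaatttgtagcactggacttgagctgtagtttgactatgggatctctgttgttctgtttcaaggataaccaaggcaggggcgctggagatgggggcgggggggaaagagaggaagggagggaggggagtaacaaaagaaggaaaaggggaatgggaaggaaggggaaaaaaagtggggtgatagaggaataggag
Hoxd4 (chr2:74721728-74721977, plus strand): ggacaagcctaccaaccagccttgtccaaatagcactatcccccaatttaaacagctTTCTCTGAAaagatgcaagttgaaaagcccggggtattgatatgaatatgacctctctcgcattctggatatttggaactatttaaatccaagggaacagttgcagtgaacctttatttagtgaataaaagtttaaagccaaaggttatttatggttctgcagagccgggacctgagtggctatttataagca

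Among anterior genes, Hoxa2, which patterns the hindbrain and the second pharyngeal arch, had signals of 599 in gp130 KO, 262 in LIFR KO and 297 in wildtype. The gp130 KO array stood above both others: 2.06-fold higher than wildtype (log2 ratio 1.04, scanner error 0.20) and 2.63-fold higher than LIFR KO (log2 ratio 1.40), while LIFR KO over wildtype was -0.35 (scanner error 0.21). With normexp, a model-based background correction, the gp130 KO ratios were 0.85 over wildtype and 0.60 over LIFR KO, short of 2-fold. Hoxa3, needed for thymus and parathyroid formation, had 1887 in gp130 KO, 1138 in LIFR KO and 1294 in wildtype. It was also highest in gp130 KO, at a log2 ratio of 0.57 over wildtype and 0.93 over LIFR KO, short of 2-fold. Hoxb3 had 57.1 in gp130 KO, 38.96 in LIFR KO and 43.1 in wildtype, with log2 ratios over wildtype of 0.43 in gp130 KO and -0.32 in LIFR KO. Its second probe was not well above background on any array.

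**Figure D1:**
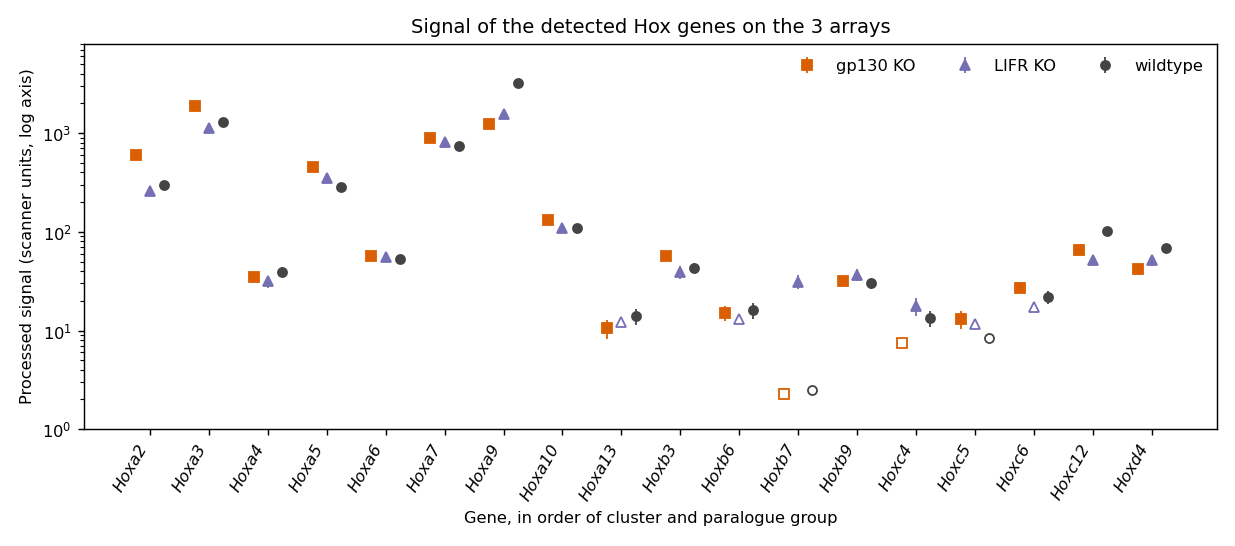
Signal of the Hox genes detected on at least 1 array and reported here (log axis, scanner units), with gp130 KO as squares, LIFR KO as triangles and wildtype as circles. Filled points were well above background and carry bars of 1 scanner error, and open points were not and carry none; Hoxa9 is highest on the wildtype array and Hoxa2 on the gp130 KO array.

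Among central genes, Hoxa5, a factor of lung and cervicothoracic development, had signals of 452 in gp130 KO, 355 in LIFR KO and 285 in wildtype. Its log2 ratio over wildtype was 0.69 in gp130 KO (scanner error 0.20) and 0.14 in LIFR KO (scanner error 0.21). Hoxa7 had 899 in gp130 KO, 810 in LIFR KO and 735 in wildtype, ratios of 0.32 and -0.03 for gp130 KO and LIFR KO. Both were highest in gp130 KO and neither passed 2-fold. Hoxa4 and Hoxa6 were dim: Hoxa4 had 35.0 in gp130 KO, 31.5 in LIFR KO and 39.3 in wildtype, with ratios over wildtype of -0.14 in gp130 KO and -0.50 in LIFR KO. Hoxa6 had 56.9, 56.1 and 52.7 on the gp130 KO, LIFR KO and wildtype arrays, with ratios of 0.14 in gp130 KO and -0.08 in LIFR KO, each smaller than its scanner error.

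Hoxd4, a cervical patterning gene, had signals of 41.5 in gp130 KO, 51.3 in LIFR KO and 68.6 in wildtype. Both knockout arrays lay below wildtype, at log2 ratios of -0.70 in gp130 KO and -0.59 in LIFR KO, 1.62-fold and 1.51-fold lower, with scanner errors of 0.22 and 0.23. With the normexp background correction the LIFR KO ratio turned to 1.16, and with normexp fitted without the stray signal it was -0.34. Hoxb6 had 15.1 in gp130 KO, 13.04 in LIFR KO (not well above background) and 16.0 in wildtype. Hoxc4 had 7.49 in gp130 KO (not well above background), 17.8 in LIFR KO and 13.4 in wildtype. Hoxc5 was well above background in gp130 KO alone, at 13.2, against 11.7 in LIFR KO and 8.31 in wildtype. Hoxc6 had 27.2 in gp130 KO, 17.5 in LIFR KO (not well above background) and 21.9 in wildtype. These 4 genes lay near the detection limit, and none of their ratios or bounds reached 2-fold.

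Hoxb7 was well above background in LIFR KO alone, with a signal of 31.3, against 2.25 in gp130 KO and 2.52 in wildtype. Against the lowest detected probe mean of the wildtype array, 6.94, Hoxb7 was 3.99-fold higher in LIFR KO. That floor lies below the lowest detected single spot of the wildtype array, 10.5. With the single spot as floor the log2 ratio fell to 1.40, still past 2-fold, so 3.99-fold is not a minimum. The local background under its spot was 50 on the LIFR KO array, against 23 in gp130 KO and 19 in wildtype, and a median of 23.5 over the LIFR KO array, so the spot lay in the stray signal. Leaving out spots in stray signal left Hoxb7 with no value in LIFR KO and detected on no array.

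Among posterior genes, Hoxa9, a regulator of blood progenitors and of the posterior trunk, had signals of 1234 in gp130 KO, 1573 in LIFR KO and 3236 in wildtype. Both knockout arrays lay below wildtype: 2.57-fold lower in gp130 KO (log2 ratio -1.36, scanner error 0.20) and 2.32-fold lower in LIFR KO (log2 ratio -1.22, scanner error 0.20). Of all genes compared, 0.409% had a ratio as low or lower in gp130 KO and 0.941% in LIFR KO. Both ratios use the same wildtype array and are not independent of each other; gp130 KO over LIFR KO was -0.15. A second, dimmer Hoxa9 probe read 58.0 in gp130 KO, 58.9 in LIFR KO and 65.0 in wildtype, with log2 ratios over wildtype of -0.14 and -0.32 for gp130 KO and LIFR KO (scanner errors 0.21 and 0.22). The probes thus had the same direction but disagreed in size, and the 2-fold difference rests on 1 probe: the mean over both probes gave -0.75 in gp130 KO and -0.77 in LIFR KO.

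Hoxc12, the most posterior gene detected on all 3 arrays, had signals of 65.1 in gp130 KO, 51.4 in LIFR KO and 102 in wildtype. It was 2.24-fold lower in LIFR KO (log2 ratio -1.16, scanner error 0.23) and 1.53-fold lower in gp130 KO (log2 ratio -0.62, scanner error 0.21), again against the shared wildtype array. With normexp the LIFR KO ratio turned to 0.84, and with normexp fitted without the stray signal it was -0.68, short of 2-fold. Hoxa10, a gene of the uterus and the lumbar axis, had 132 in gp130 KO, 109 in LIFR KO and 109 in wildtype, ratios of 0.30 in gp130 KO and -0.18 in LIFR KO. Hoxb9 had 31.7 in gp130 KO, 36.9 in LIFR KO and 30.3 in wildtype, with ratios of 0.09 and 0.11, smaller than their scanner errors of 0.26 and 0.28. Hoxa13, a gene of the digits and the hindgut, had 10.5 in gp130 KO, 12.3 in LIFR KO (not well above background) and 13.96 in wildtype, all near the detection limit.

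**Figure D2:**
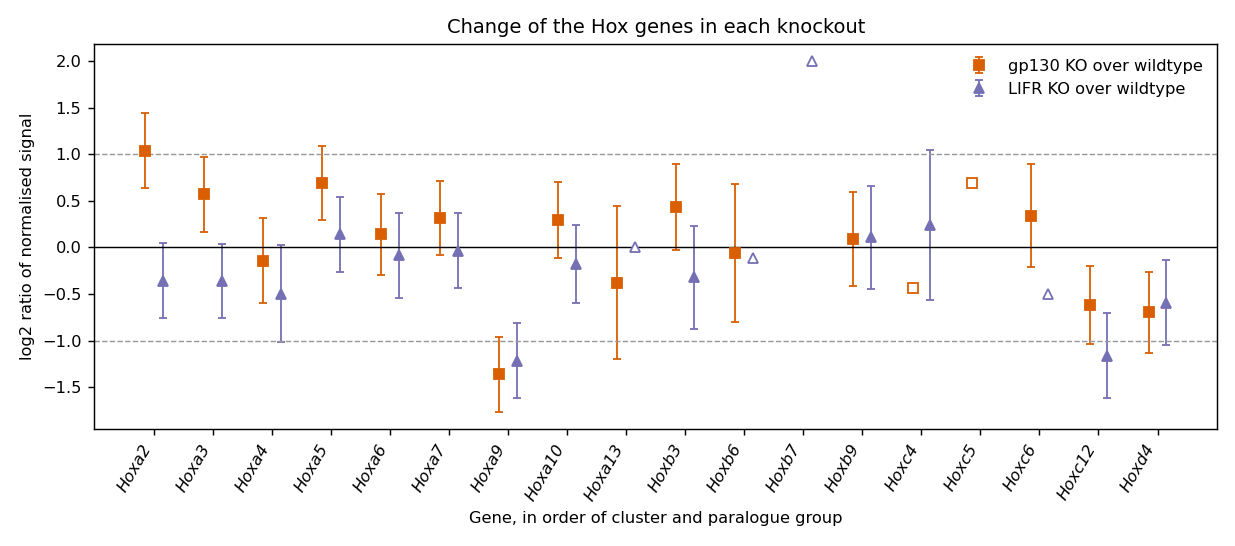
log2 ratio over wildtype of the compared Hox genes reported here. Squares are gp130 KO and triangles LIFR KO, with bars of the 95% scanner error. Open points, with no bar, are ratios where 1 array was not well above background. They were taken against the higher of the dim value and that array's lowest detected probe mean. Dashed lines mark 2-fold. Hoxa9 lies below a log2 ratio of -1 in both knockouts, Hoxc12 in LIFR KO, and Hoxa2 above 1 in gp130 KO.

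In gp130 KO over wildtype 18 Hox genes could be compared, 16 of them measured on both arrays and 2 as bounds. Hoxa2 was at least 2-fold higher, where 1.61% of all genes compared were, and Hoxa9 at least 2-fold lower, where 0.784% were. Of the 16 measured genes 9 had a ratio above 0 and 7 below, and the median of the 18 was 0.12, against 0.03 for all genes. Past the 95% scanner error, Hoxa2, Hoxa3 and Hoxa5 were higher (3 of 16, with 5.17% of all genes measured on both arrays) and Hoxa9, Hoxc12 and Hoxd4 lower (3 of 16, with 4.65%).

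In LIFR KO over wildtype 18 Hox genes could be compared, 14 measured on both arrays and 4 as bounds. Hoxb7 was at least 2-fold higher, in the stray signal described above, where 2.87% of all genes were, and Hoxa9 and Hoxc12 at least 2-fold lower, where 1.62% were. Of the 14 measured genes 4 lay above 0 and 10 below, and the median of the 18 was -0.15, against -0.03 for all genes. Past the 95% scanner error, Hoxa9, Hoxc12 and Hoxd4 were lower (3 of 14, with 12% of all genes).

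**Figure D3:**
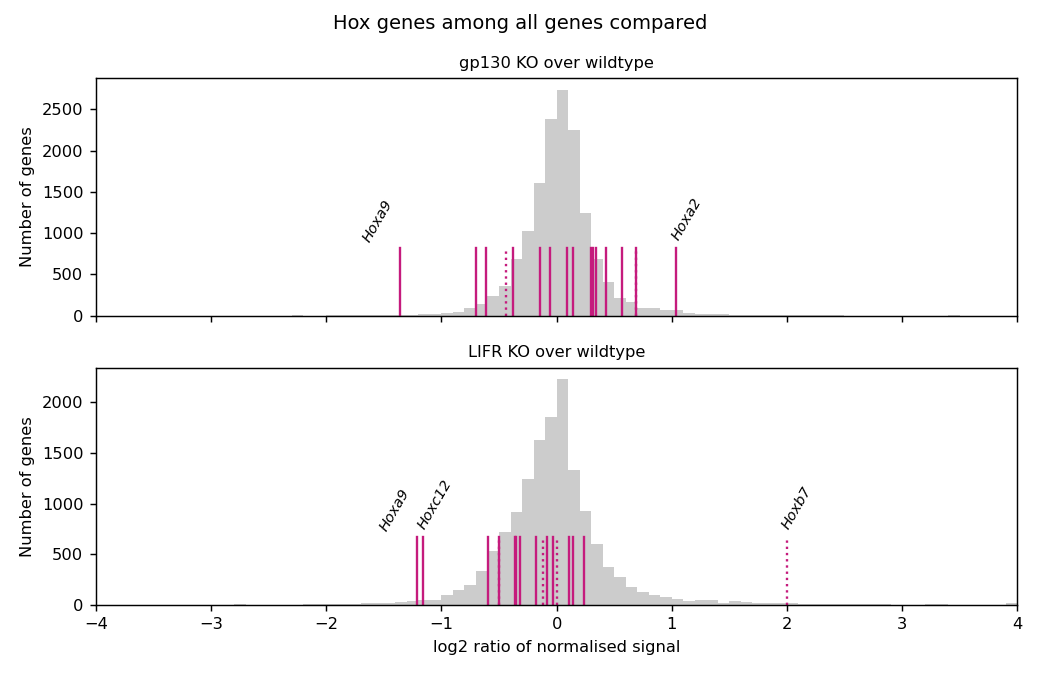
Number of genes by log2 ratio over wildtype in gp130 KO (top) and LIFR KO (bottom), over all genes compared (grey), with the Hox genes reported here as lines, dotted where the ratio is a bound. Most Hox lines fall inside the bulk of the genes, and Hoxa9 lies in the low tail of both panels.

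In gp130 KO over LIFR KO 19 Hox genes could be compared, 13 of them measured on both arrays. Hoxa2 was at least 2-fold higher, where 1.29% of all genes were, and Hoxb7 at least 2-fold lower as a bound of 2.82-fold, where 2.05% were. Of the 13 measured genes 9 lay above 0 and 4 below, with a median of 0.22 over the 19 against 0.05 for all genes. Past the 95% scanner error, Hoxa2, Hoxa3, Hoxa5, Hoxa10, Hoxb3 and Hoxc12 were higher (6 of 13, with 8.34% of all genes). Hoxa10, Hoxb3 and Hoxc12 kept this sign in 9 of the 10 alternatives described at the end. Their lowest values there were -0.84, -1.42 and -1.20.

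Within the Hoxa cluster the ratios of measured genes fell on both sides of 0. In gp130 KO over wildtype 6 of 10 measured Hoxa genes lay above 0, from Hoxa2 at 1.04 to Hoxa9 at -1.36, with Hoxa7 at 0.32 and Hoxa10 at 0.30 on either side of Hoxa9. In LIFR KO over wildtype 2 of 9 lay above 0, with Hoxa5 at 0.14, and Hoxa9 was the lowest at -1.22. Hoxa11os, a noncoding RNA antisense to Hoxa11, had 33.6 in gp130 KO, 36.4 in LIFR KO and 41.4 in wildtype, ratios of -0.27 and -0.36. The genes that flank the cluster, Cbx3, Snx10, Skap2, Hibadh and Tax1bp1, ranged from -0.15 to 0.19 over both knockouts, and Evx1 was not well above background. These flanking genes were chosen after their values were seen.

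**Figure D4:**
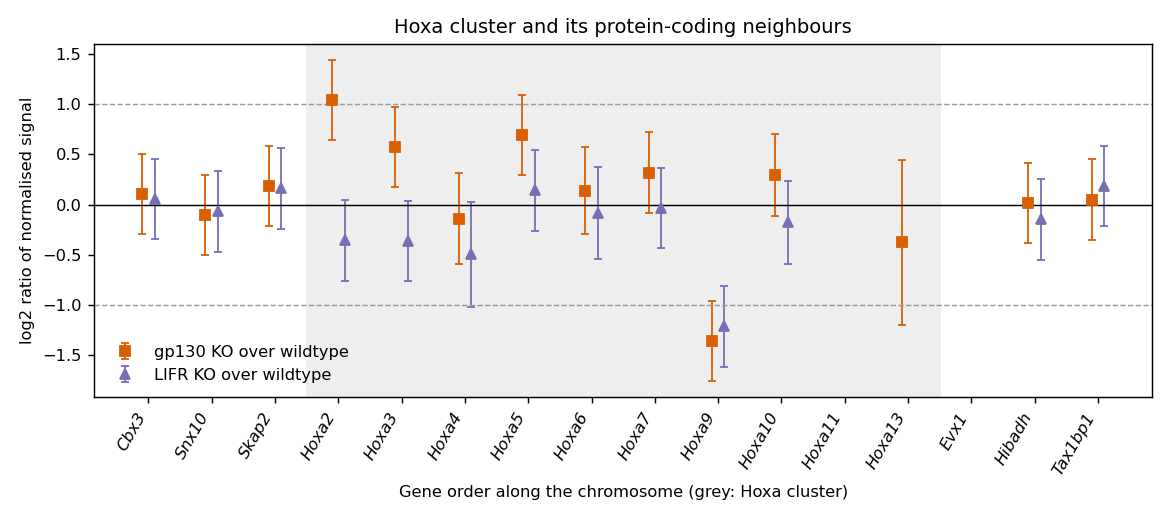
log2 ratio over wildtype for the Hoxa genes reported here and their neighbours in chromosome order, gp130 KO as squares and LIFR KO as triangles, with bars of the 95% scanner error; genes not measured on both arrays have no point, and dashed lines mark 2-fold. The flanking genes lie near 0 and the points inside the cluster spread from -1.36 to 1.04.

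The STAT letters occurred once, 193 bases before the start of Hoxd4, whose ratios are given with the central genes, and neither the Hoxa2 nor the Hoxa9 window held them. Promoter entries were matched for 22 of the 39 Hox genes (24 windows), and Hoxd4 was the 1 gene with the motif, against 7.02% of 32851 promoters. The CDX letters TTTATG, the motif of caudal-type factors, were in windows of Hoxa7, Hoxb8, Hoxd3, Hoxd4 and Hoxd11, 5 of 24, against 10.8% of all promoters. The TATA letters TATAAA were in those of Hoxa10, Hoxb8, Hoxd4 and Hoxd13, against 12.4%. The retinoic acid DR5 motif, paired AGGTCA runs in the same orientation spaced by 5 bases, was in no Hox window and in 3 of all promoters. Hox windows had a median GC content of 58.6% and 12.5 CpG pairs, against 52.4% and 6 for all promoters. A match is a run of letters and not a bound site.

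Genes that act with or on the Hox clusters were read from lists. Of 9 TALE cofactors 8 were compared and none passed 2-fold in either knockout, with medians of 0.11 in gp130 KO and -0.03 in LIFR KO. Pbx3, which encodes a DNA-binding partner of HOX proteins, had 1105 in gp130 KO, 1228 in LIFR KO and 854 in wildtype, ratios of 0.40 in gp130 KO and 0.35 in LIFR KO. Of 6 Cdx and ParaHox genes 2 were compared. Cdx1, a caudal-type regulator of Hox genes, had ratios of -0.21 in gp130 KO and -0.53 in LIFR KO. Gsx1 had 27.2 in LIFR KO, against 9.60 in wildtype, not well above background. Its ratio to that undetected value was 2.51-fold (log2 scanner error 0.47). Both Evx genes were below detection on all 3 arrays.

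All 30 Polycomb genes, whose products hold Hox clusters silent, were detected on all 3 arrays, where 63.6% of named genes were. Their medians were 0.08 in gp130 KO and 0.02 in LIFR KO. In LIFR KO over wildtype 3 of the 30 were at least 2-fold higher, where 2.87% of all genes compared were. Among them were Cbx2 and Cbx8, which encode chromobox subunits of Polycomb repressive complex 1. None was 2-fold lower, where 1.62% of all genes were, and in gp130 KO over wildtype none passed 2-fold. Cbx8 had 507 in gp130 KO, 1107 in LIFR KO and 295 in wildtype, 3.32-fold higher in LIFR KO. Cbx2 had 1659 in gp130 KO, 3016 in LIFR KO and 1039 in wildtype, 2.57-fold higher in LIFR KO. In gp130 KO Cbx8 had a log2 ratio of 0.81 and Cbx2 of 0.70. The brightest members, Rbbp7 and Phc2, had ratios between -0.00321 and 0.09.

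Of 17 genes of the Trithorax and MLL complexes, which oppose Polycomb at Hox genes, 16 were compared, and Kmt2a had no matched probe. None passed 2-fold over wildtype, with medians of 0.10 in gp130 KO and 0.19 in LIFR KO. In gp130 KO over LIFR KO 1 of the 16 was at least 2-fold lower, where 2.05% of all genes were. The brightest, Hcfc1, had ratios over wildtype of 0.35 in gp130 KO and 0.06 in LIFR KO, and Ash2l 0.11 and -0.03. Of 20 retinoic acid pathway genes 14 were compared in gp130 KO and 13 in LIFR KO, none past 2-fold, with medians of 0.17 and -0.12. Rara, a retinoic acid receptor, had 2553 in gp130 KO, 4854 in LIFR KO and 2677 in wildtype, ratios of -0.04 and 0.68, and Rxrb 0.32 and 0.30. Of 9 axial patterning genes 6 were compared, none past 2-fold, with medians of 0.05 and -0.36; Lin28a had ratios of 0.20 and -0.62 and Tbx6 -0.02 and -0.42. Of 17 cluster neighbours and noncoding RNAs 13 were compared, with medians of 0.03 in gp130 KO and -0.00300 in LIFR KO. The noncoding RNAs Halr1, Hotair, Hotairm1 and Hottip had no matched probe, so the 13 were neighbours only. Calcoco1, beside the Hoxc cluster, had signals of 24.6 in gp130 KO and 42.3 in LIFR KO. In wildtype it had 8.42, not well above background. Ratios to that undetected value were 2.98-fold in gp130 KO and 4.45-fold in LIFR KO (log2 scanner errors 0.57 and 0.57). The brightest of these 17 listed genes, Hnrnpa1 and Mtx2, lay between -0.11 and 0.13.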

How the data were processed

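Per the labels, total RNA extracted with Trizol was amplified to Cy3-labelled cRNA; per the submitters' processing notes the arrays were read with Agilent Feature Extraction 9.1, while the file headers give version 11.0.1.1. The deposited intensity is the background-subtracted processed signal of each spot, with its error, local background and the flags the authors' software set, per the file headers. The authors' deposited log2 table has the same median, 5.38, in each column and followed the scanner values (r 0.995 in gp130 KO, 0.999 in LIFR KO, 0.996 in wildtype); its scaling is not stated, and it served as an alternative. Outlier spots (138 in gp130 KO, 222 in LIFR KO, 97 in wildtype) were dropped, spots of a probe averaged on the log2 scale, and each array's 75th percentile subtracted. A probe was detected where at least 50% of its spots were well above background. A gene was read from its brightest probe and compared where that probe was detected on at least 1 of the arrays; where the other array was dim, the ratio was given as a bound against the higher of the dim value and that array's lowest detected probe mean, and genes dim on both arrays were not compared. Where the dim value was the higher, such a bound is the plain ratio and not a minimum. No spot was saturated. Probe accessions were matched to RefSeq symbols (69.1% of probes). Named genes were every detected Hox gene, the 2 brightest members of each list and up to 4 past 2-fold. A few genes that this rule takes are not reported here, though counts and medians include them. The Hox genes and lists were chosen with earlier results of these data known. Software: Python 3.11.15, pandas 2.3.3, numpy 2.4.6, R 4.3.3 and limma 3.58.1. The ratio steps recovered known changes in simulated data. Only bright, detected probes were changed there, so the simulation does not cover dim genes or bounds.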

Additional observations from a re-analysis of the deposited data

How the results depend on the processing

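The ratios were recomputed under 10 alternatives and detection under 3. Hoxa9 stayed at least 2-fold lower in both knockouts in 9 of 10, ranging from -1.39 to -0.75 in gp130 KO and from -1.41 to -0.77 in LIFR KO; the exception was the mean over its probes. Hoxa2 in gp130 KO passed 2-fold in 8 of 10 (0.85 to 1.04) and Hoxc12 in LIFR KO in 8 of 10, but with normexp background correction (offset 50) Hoxc12 was reversed, at 0.84, and Hoxd4 in LIFR KO turned to 1.16. Normexp gave 8 Hox genes past 2-fold in LIFR KO over wildtype (median 0.68), against 3; 1 in gp130 KO over wildtype, against 2; and 8 in gp130 KO over LIFR KO (median -0.54), against 2. Over all genes it gave 3302 higher and 94 lower in LIFR KO, against 417 and 236, and 10 higher and 33 lower in gp130 KO, against 240 and 117. In gp130 KO over LIFR KO it gave 47 and 3247, against 191 and 303. Without a filter, all genes past 2-fold over wildtype numbered 654 higher and 594 lower in gp130 KO and 649 and 1018 in LIFR KO. With both arrays above background they numbered 78 and 66 in gp130 KO, and 253 higher in LIFR KO. The lowest single spot as floor gave 146 higher in gp130 KO. Fitted without the spots in stray signal, an alternative chosen after seeing the data, normexp gave 1 Hox gene past 2-fold in each of the 3 comparisons. Over all genes it gave 112 higher and 65 lower in LIFR KO over wildtype, and 9 and 33 in gp130 KO over wildtype. For gp130 KO over LIFR KO the counts were 37 and 77. With no filter on dim probes the medians were 0.32 in LIFR KO over wildtype, -0.13 in gp130 KO over wildtype and -0.37 in gp130 KO over LIFR KO, and 4 genes passed 2-fold in gp130 KO over wildtype and 4 in gp130 KO over LIFR KO. Over all genes the unfiltered counts in gp130 KO over LIFR KO were 969 higher and 564 lower. The mean over all probes of a gene gave 1 Hox gene in gp130 KO over wildtype, with 204 higher and 118 lower over all genes. In gp130 KO over LIFR KO, 1 Hox gene passed where both arrays had to be well above background, and 1 with stray signal left out. Over all genes 124 were higher and 184 lower in the first case, and 191 and 248 in the second. The cause of these differences was not tested. With the looser positive-and-significant flag 24 Hox genes were detected in gp130 KO, 22 in LIFR KO and 22 in wildtype. Of all named genes 85.6%, 78.6% and 85.1% were, in that order. When more than 50% of a gene's probes had to pass, 14, 13 and 14 Hox genes were detected. Of all named genes 65.7%, 59.3% and 64.6% then were. No paired analysis was possible because each group has 1 array and the labels carry no replicate numbers. Precision is limited by the number of arrays, 1 a group, and dim genes such as Hoxa13, Hoxb6, Hoxc4 and Hoxc5 lie at the detection limit.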
